A study of Rattus norvegicus with 9 samples.

Results

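The genes described here are 7 genes of the contractile actin cytoskeleton and its attachment sites, chosen by symbol from the 17337 genes of the count table: the nonmuscle myosin heavy chains Myh9 and Myh10, the actin filament proteins Tpm1, Actn1 and Flna, and the focal adhesion proteins Vcl and Zyx. They were chosen by name and function, with no threshold on a measured value. RNA was sequenced from cultures of cardiac fibroblasts, the connective-tissue cells of the heart, of Sprague Dawley rats at 3 ages with 3 libraries each: fetuses at embryonic day 18, newborns at postnatal day 1, and adults of 7 weeks. Per the labels, all cultures were at passage 0, had reached confluency in T75 flasks and had been fed DMEM with serum, antibiotics and ascorbic acid, and no other treatment or genetic change was given. The labels name no sorting step, so a library holds RNA of all cells in the culture. The labels do not say which animals or flasks the libraries came from, so the p-values measure the spread between these libraries, which may be technical.

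Nonmuscle myosin II is the motor that pulls actin filaments past each other in cells without sarcomeres, and its heavy chains are encoded by Myh9, Myh10 and Myh14. Tropomyosins lie along the filament and set which myosins can bind, while alpha-actinins and filamins crosslink filaments. The tension is passed to the matrix at focal adhesions, where vinculin joins the integrin-talin complex to actin and zyxin recruits actin-assembly factors. In the heart, fibroblasts that build up such contractile bundles are known as myofibroblasts and take part in scar formation.

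The libraries held 13392825 to 22850491 assigned counts, and the 3 adult libraries were the shallowest. The fibroblast marker list (10 genes) was present at every age, with a summed level of 23654 to 50437 CPM (TMM-scaled counts per 1000000 counts) in fetal, 67927 to 74193 in neonatal and 22236 to 29822 in the adult libraries. Col1a1 and Col3a1 make up most of this sum. Col1a2 was at 0.412, 0.722 and 0.348 CPM (means of the 3 ages). Its annotation runs from 29529854 to 31569152 on chromosome 4 in 104 exon blocks (51 for Col1a1), so its count is uncertain. From neonatal to adult cultures all libraries were higher for 3 of the 10 markers and lower for 5. Pdgfra (182 to 433 CPM), Tcf21 (86.1 to 149 CPM) and Dcn (58.2 to 353 CPM) were the higher ones. Col1a1 (37796 to 14965 CPM), Col3a1 (30805 to 9468 CPM), Ddr2 (336 to 153 CPM), Lum (130 to 32.0 CPM) and Postn (1469 to 749 CPM) were the lower ones. Other cell types were detectable too. The 11 measured cardiomyocyte markers summed to 9617 to 13744 CPM in fetal, 6282 to 6912 in neonatal and 305 to 319 in the adult libraries. Tnnt2, with a mean of 309.6 CPM, made up nearly all of the adult sum, and the other 10 markers each had an adult mean of 0.495 CPM or less. The 12 leukocyte markers summed to 14.9 to 62.7, 124 to 136 and 3269 to 4098 CPM at the 3 ages. The 8 smooth muscle and pericyte markers summed to 1936 to 2671, 2614 to 2673 and 336 to 685 CPM. The 7 endothelial markers summed to 8.26 to 9.48, 17.3 to 20.7 and 81.6 to 96.1 CPM, and Tie1 (adult mean 70.4 CPM) made up most of the adult sum. Fetal replicate 3 stood apart from the other fetal libraries: its fibroblast markers summed to 23654 CPM and its 5 epithelial markers to 395 CPM, against 47658 and 50437 CPM and 23.7 and 26.5 CPM in the others. Its leukocyte markers summed to 62.7 CPM, against 14.9 and 14.9 CPM in the others. Its smooth muscle and pericyte markers summed to 1936 CPM, against 2671 and 2643 CPM. The part that these other cells had in the differences below was not tested, and in such bulk samples fewer cells of a type and less RNA per cell cannot be told apart.

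All 7 genes passed the filter on low counts and were tested with edgeR among 11337 genes. From fetal to neonatal cultures Vcl rose, Myh10 and Tpm1 fell, and 4 did not pass the test (adjusted p under 0.05 over all genes tested). These 3 of 7 stand beside 36.3% of all tested genes that were called, 18.3% higher and 18.0% lower. From neonatal to adult cultures 6 of the 7 fell and 0 rose, with Zyx not called, beside 63.5% of all tested genes called, 31.6% higher and 31.8% lower. Adult against fetal cultures gave the same counts, 6 lower and 0 higher, beside 70.5% of all tested genes called, 34.9% higher and 35.5% lower. A call with a log2 difference of -1 or below was made for 0, 5 and 5 of the 7 in these comparisons, and for 5.42%, 12.2% and 15.8% of all tested genes. Libraries of the ages compared did not overlap for 4 of the 7 between neonatal and fetal cultures, 2 higher and 2 lower, beside 57.4% of all tested genes (29.2% higher, 28.1% lower). All 7 were lower without overlap in adult than in neonatal cultures, beside 76.1% of all tested genes without overlap (37.6% higher, 38.5% lower). Against fetal cultures 6 of the 7 were, beside 71.8% (35.9% higher, 35.8% lower). The median log2 difference of the 7 genes was -0.0082 for neonatal against fetal, -1.38 for adult against neonatal and -1.37 for adult against fetal, and that of all tested genes was -0.0053, -0.0065 and -0.013. Without Myh9, whose counts cover little of the gene as described below, 5 of 6 fell in each adult comparison and the medians were 0.03, -1.50 and -1.46. These comparisons share libraries and are not independent. Together the 7 genes took 1.68 to 1.75% of the counts in fetal, 1.52 to 1.56% in neonatal and 0.556 to 0.719% in the adult libraries.

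**Figure D1:**
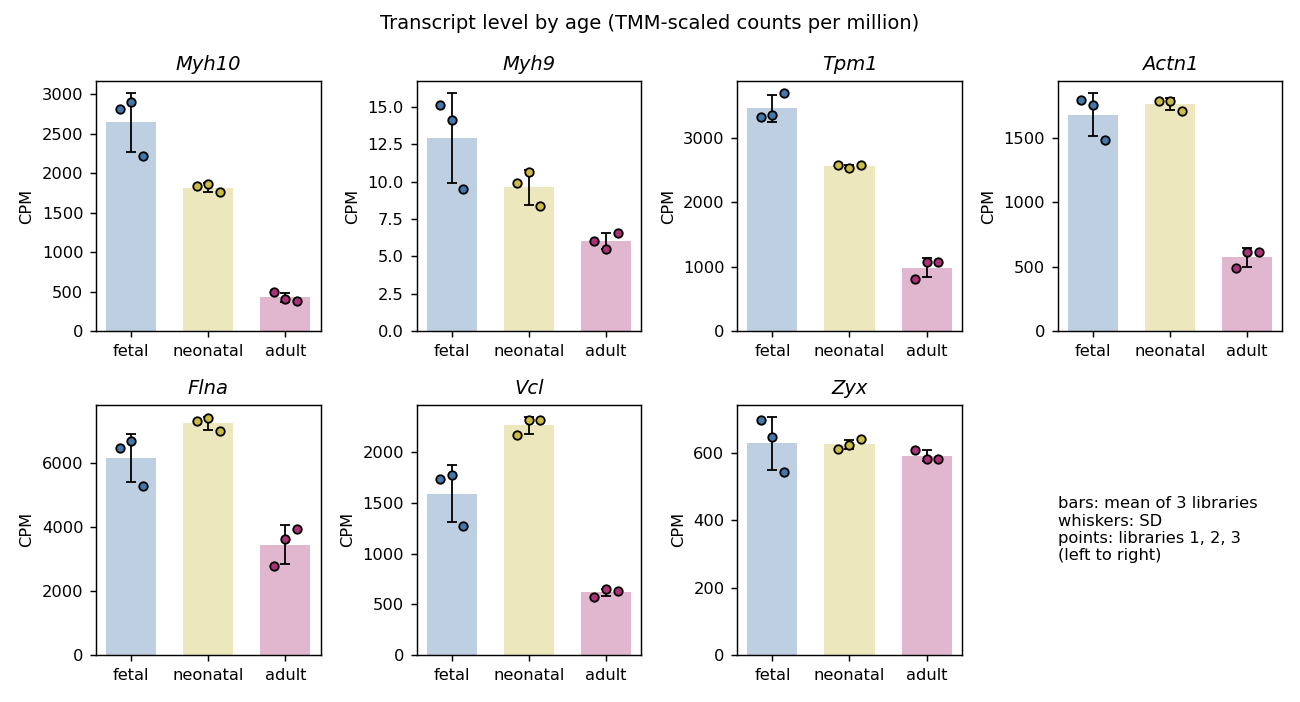
Level of each gene in every library, in TMM-scaled CPM on a linear axis from 0, by age; bars are means of 3 libraries, whiskers are SD and points are libraries. Every adult library lies below every fetal and neonatal library for each gene but Zyx, whose levels stay between 543 and 697 CPM.

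Myh10 had the largest fall. The gene, the heavy chain of nonmuscle myosin IIB, lies on chromosome 10 at 55275411 to 55406734 (rn6, plus strand) with 41 exon blocks and shares no exon base with another annotated gene. It was at 2807, 2907 and 2217 CPM in fetal replicates 1 to 3, at 1834, 1864 and 1758 CPM in the neonatal and at 491, 407 and 389 CPM in the adult replicates. The 3 ages did not overlap. The adult level was 4.24-fold below the neonatal (log2 -2.08, SE 0.13, edgeR adjusted p = 1.42e-06) and 6.16-fold below the fetal level (log2 -2.62, SE 0.13, edgeR adjusted p = 2.13e-07). The neonatal level was also below the fetal (log2 -0.54, SE 0.12, edgeR adjusted p = 0.00975).

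Myh9, the heavy chain of nonmuscle myosin IIA, is usually abundant in fibroblasts but had only 76 to 321 counts per library. On chromosome 7 (118991251 to 119071722, rn6, minus strand) 7206 of its 7421 exon bases, 97.1%, are also annotated as exons of Myh9l1 on the same strand. By the counting program's default, a read that falls in exons of more than 1 gene is given to none. Myh9l1 held 0 counts in all 9 libraries together. It also has a second set of exon blocks, 279 to 332 kb from the annotated start of Myh9, that share no base with Myh9. Their sizes repeat those of its blocks over Myh9. Why this second set held no counts was not tested. The 215 bases that Myh9 does not share are its whole first exon block, so the counts describe reads within that block and not the level of the transcript. The map of the annotated exon blocks shows this.

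**Figure D2:**
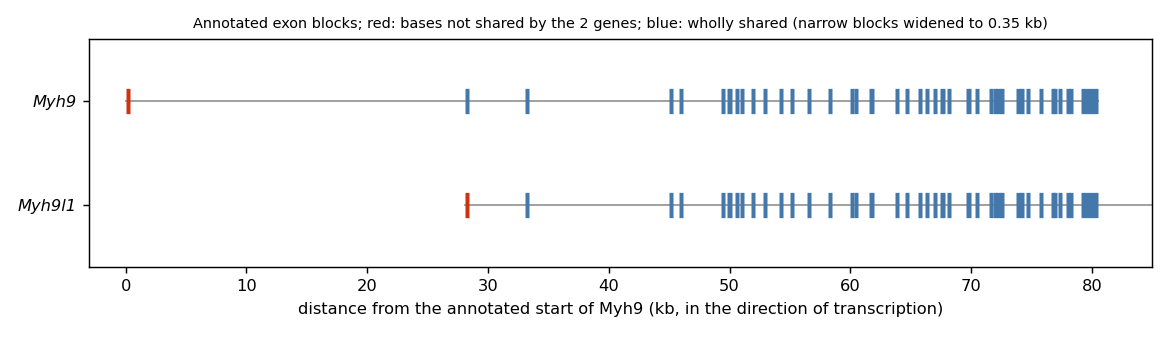
Exon blocks of Myh9 and Myh9l1 against the distance from the annotated start of Myh9 in kb. Only the first of the 41 Myh9 blocks is not shared (red). The other blocks of Myh9 (blue) are wholly covered by Myh9l1, whose own first block is partly unshared (red). Beyond the right edge Myh9l1 continues with a second set of blocks, at 279 to 332 kb, that is not drawn. Narrow blocks are drawn widened.

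On these reads Myh9 was at 15.1, 14.2 and 9.51 CPM in the fetal, 9.91, 10.6 and 8.35 CPM in the neonatal and 6.05, 5.49 and 6.59 CPM in the adult replicates. Fetal and neonatal libraries overlapped, and the adult libraries lay below all others. The log2 difference was -0.68 for adult against neonatal (SE 0.20, edgeR adjusted p = 0.0135), -1.10 for adult against fetal (SE 0.19, edgeR adjusted p = 0.000714) and -0.42 for neonatal against fetal (SE 0.19, edgeR adjusted p = 0.105). The last passed the test without fetal replicate 3 (log2 -0.60, edgeR adjusted p = 0.00444) and with scaling by library size only (log2 -0.58, edgeR adjusted p = 0.0204). Without neonatal replicate 2 the adult to neonatal call was lost (log2 -0.60, edgeR adjusted p = 0.053). The ratio of Myh10 to Myh9 counts within a library, which no scaling can move, was 7.69 ± 0.16 on the log2 scale in fetal, 7.56 ± 0.14 in neonatal and 6.14 ± 0.24 in the adult libraries (mean ± SD, n = 3), and the ages differed (F test by exact permutation of the 9 libraries, p = 0.0143, smallest possible 0.00357). For single pairs of ages the exact two-sided permutation test cannot go below 0.1. It gave 0.1 for adult against neonatal, 0.1 for adult against fetal and 0.4 for neonatal against fetal (0.15, 0.15 and 0.4 adjusted over the 3 pairs). Since the Myh9 reads come from 1 exon block, the ratio is no measure of the balance of the 2 heavy chains.

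Tpm1 fell at each step. It encodes alpha-tropomyosin, of which muscle and nonmuscle forms arise by alternative exons that a gene count adds together, and lies on chromosome 8 (72814738 to 72841496, rn6, minus strand). Its level was 3318, 3355 and 3694 CPM in the fetal, 2575, 2527 and 2570 CPM in the neonatal and 811, 1066 and 1065 CPM in the adult replicates, with no overlap between ages. The log2 difference was -0.43 for neonatal against fetal (SE 0.11, edgeR adjusted p = 0.0167), -1.38 for adult against neonatal (SE 0.12, edgeR adjusted p = 8.55e-06) and -1.82 for adult against fetal (SE 0.12, edgeR adjusted p = 9.76e-07). Dropping a single neonatal library, whichever it was, ended the neonatal to fetal call (edgeR adjusted p from 0.0633 to 0.0698). Unlike the other genes, Tpm1 was highest in fetal replicate 3. Heart muscle expresses Tpm1 too, and the cardiomyocyte markers fell over the same ages. Within the fetal group their sum was lowest in replicate 3 (9617 CPM, against 12801 and 13744 CPM), where Tpm1 was highest. That sum includes Nppa, which ran from 1607 to 3833 CPM in the fetal libraries. The part that cardiomyocytes had in the Tpm1 level was not tested.

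Actn1 and Flna were lower in adult cultures and did not pass the test between fetal and neonatal cultures. Actn1 (chromosome 6, 103376557 to 103470497, rn6, minus strand) encodes the nonmuscle alpha-actinin that crosslinks filaments in stress fibres and adhesions. It was at 1797, 1758 and 1487 CPM in the fetal, 1788, 1791 and 1710 CPM in the neonatal and 488, 617 and 613 CPM in the adult replicates. The fetal and neonatal libraries overlapped (log2 0.069, SE 0.11, edgeR adjusted p = 0.655, and -0.096 with scaling by library size only), and the adult libraries were 3.08-fold below the neonatal (log2 -1.62, SE 0.11, edgeR adjusted p = 2.96e-06) and 2.94-fold below the fetal (log2 -1.55, SE 0.11, edgeR adjusted p = 2.24e-06).

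Flna, which encodes filamin A, a crosslinker that also binds integrin tails, lies on chromosome X (156463953 to 156487245, rn6, plus strand). It had the most counts of the 7 genes, with 6477, 6670 and 5289 CPM in the fetal, 7314, 7396 and 7007 CPM in the neonatal and 2772, 3633 and 3930 CPM in the adult replicates. All neonatal libraries were above all fetal ones, but the difference did not pass the test (log2 0.24, SE 0.14, edgeR adjusted p = 0.22). The adult level was 2.1-fold below the neonatal (log2 -1.07, SE 0.14, edgeR adjusted p = 0.000167) and 1.78-fold below the fetal level (log2 -0.83, SE 0.14, edgeR adjusted p = 0.000598). Adult replicate 1 was the lowest adult library for Flna, Tpm1, Actn1 and Vcl and the highest for Myh10 and Zyx.

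Vcl was highest in the neonatal cultures. Vinculin, its product, binds talin and actin in adhesions under tension, and the gene lies on chromosome 15 (3455211 to 3544685, rn6, minus strand). Its level was 1737, 1773 and 1269 CPM in the fetal, 2174, 2320 and 2316 CPM in the neonatal and 575, 649 and 629 CPM in the adult replicates, with no overlap between ages. It rose from fetal to neonatal cultures (log2 0.51, SE 0.13, edgeR adjusted p = 0.0129), by 0.37 on the log2 scale without fetal replicate 3, its lowest fetal library. With scaling by library size only the rise was 0.35. All 15 alternatives kept the call, in 1 of them narrowly (edgeR adjusted p = 0.049). Vcl was 3.68-fold lower in adult than in neonatal cultures (log2 -1.88, SE 0.13, edgeR adjusted p = 2.6e-06) and 2.58-fold lower than in fetal cultures (log2 -1.37, SE 0.13, edgeR adjusted p = 1.07e-05).

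Zyx was not called in any comparison. Zyxin, a LIM-domain protein that recruits actin-assembly factors to adhesions and strained filaments, is encoded on chromosome 4 (71740532 to 71749385, rn6, plus strand), where 144 of its 2557 exon bases are shared with Epha1. It was at 697, 647 and 543 CPM in the fetal, 613, 623 and 641 CPM in the neonatal and 610, 583 and 581 CPM in the adult replicates. The log2 difference was -0.0082 for neonatal against fetal (SE 0.092, edgeR adjusted p = 0.954), -0.081 for adult against neonatal (SE 0.092, edgeR adjusted p = 0.465) and -0.089 for adult against fetal (SE 0.092, edgeR adjusted p = 0.406). Every adult library was below every neonatal one, by less than the test could call. The last result changed with 2 choices: the adult level was called lower without fetal replicate 3 (log2 -0.19, SE 0.053, edgeR adjusted p = 0.00741) and with scaling by library size only (log2 -0.19, edgeR adjusted p = 0.034).

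**Figure D3:**
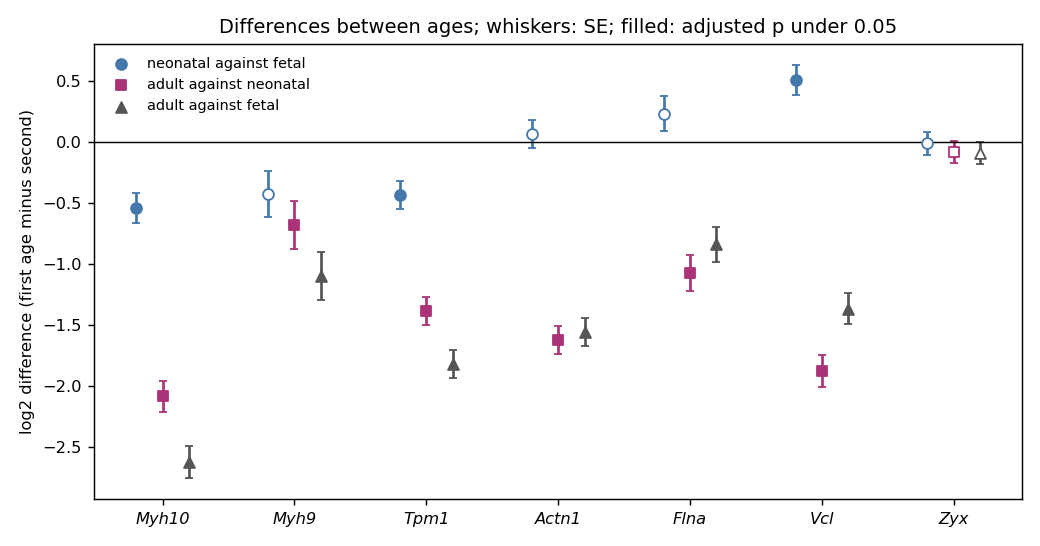
Log2 difference between ages for the 7 genes, with the SE as whiskers; filled symbols passed the edgeR test at adjusted p under 0.05. The adult differences run from -2.62 for Myh10 to -0.081 for Zyx, and Vcl alone is called above 0 between neonatal and fetal cultures.

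Zyx was taken as a reference within each library after its levels were seen, so ratios to it repeat the pattern above on a scale that needs no factor between libraries. Per Zyx read, Myh10 gave 4.03 to 4.49 reads in fetal, 2.74 to 2.99 in neonatal and 0.669 to 0.805 in adult cultures. Vcl gave 2.34 to 2.74, 3.55 to 3.73 and 0.943 to 1.11 reads, with the neonatal libraries highest. Flna gave 9.29 to 10.3, 10.9 to 11.9 and 4.54 to 6.76 reads. Tpm1 gave 4.76 to 6.81, 4.01 to 4.2 and 1.33 to 1.83 reads, and Actn1 2.58 to 2.74, 2.67 to 2.92 and 0.8 to 1.06.

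To compare levels between genes, CPM was divided by exon length (CPM per kb). In fetal libraries the order of the mean levels was Tpm1 (1175 ± 70.6), Flna (731 ± 88.9), Actn1 (571 ± 57.4), Myh10 (346 ± 48.8), Vcl (302 ± 53.3) and Zyx (246 ± 30.9 CPM per kb, SD, n = 3), and Myh10, Vcl and Zyx overlapped with their neighbours. In adult libraries the order was Flna (410 ± 71.5), Tpm1 (334 ± 50.04), Zyx (231 ± 6.39), Actn1 (195 ± 24.9), Vcl (117 ± 7.2) and Myh10 (56.2 ± 7.17 CPM per kb), where only Flna and Tpm1 overlapped. Zyx had the lowest level of these 6 in fetal cultures, and in adult cultures it was below Flna and Tpm1 only. Among all tested genes, Myh10 ranked 150 by CPM per kb in fetal, 286 in neonatal and 1807 in adult cultures, while Zyx ranked 240, 274 and 361. For these 6 genes the neonatal libraries were the closest, with a coefficient of variation of 1.03% for Tpm1 to 3.68% for Vcl, against 6.01% to 17.6% in fetal and 2.76% to 17.5% in adult libraries. For Myh9 the adult libraries were, at 9.11%, against 12.1% in neonatal and 23.2% in fetal ones.

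RefSeq promoters (assembly GRCr8, 250 bases before to 50 after a start) were found for all 7 genes, 9 promoters in all, and are shown for the gene that fell most, the gene that was highest in neonatal cultures and the gene that was not called. Capitals mark the core of the TEAD motif, GGAATG or CATTCC on the other strand, a factor family that acts with YAP and TAZ in cells under tension. The Myh10 promoter is chr10:53893014-53893313 (plus strand), that of Vcl chr15:3404751-3405050 (minus strand) and the more upstream of 2 for Zyx chr4:72203750-72204049 (plus strand).
Myh10: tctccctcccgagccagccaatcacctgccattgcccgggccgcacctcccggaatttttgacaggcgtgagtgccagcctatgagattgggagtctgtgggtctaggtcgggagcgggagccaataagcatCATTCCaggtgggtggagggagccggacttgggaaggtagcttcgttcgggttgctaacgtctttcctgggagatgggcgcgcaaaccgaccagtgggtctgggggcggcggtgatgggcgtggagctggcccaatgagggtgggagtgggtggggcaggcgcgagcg
Vcl: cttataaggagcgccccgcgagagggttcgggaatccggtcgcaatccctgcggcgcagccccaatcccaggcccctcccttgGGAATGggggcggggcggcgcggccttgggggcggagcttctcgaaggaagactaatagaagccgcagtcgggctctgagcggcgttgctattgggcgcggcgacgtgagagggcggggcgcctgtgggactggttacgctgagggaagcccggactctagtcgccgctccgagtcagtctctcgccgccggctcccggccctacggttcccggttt
Zyx: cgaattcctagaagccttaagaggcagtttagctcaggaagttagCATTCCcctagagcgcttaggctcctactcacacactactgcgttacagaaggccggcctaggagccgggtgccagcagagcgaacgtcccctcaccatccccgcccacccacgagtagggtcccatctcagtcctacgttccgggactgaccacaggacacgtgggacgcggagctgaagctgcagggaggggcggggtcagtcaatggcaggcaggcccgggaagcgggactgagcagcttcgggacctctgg
These 3 promoters hold the core at 118, 167 and 205 bases before the start, none of them overlapping an Sp1 core (GGGCGG or CCGCCC). Of the 7 genes 5 have the TEAD core in a promoter (Flna, Myh10, Tpm1, Vcl and Zyx), where 15% of the 27457 genes with promoters, and 14.2% of all 33469 promoters of this length, hold it. All 7 have an Sp1 core, against 36% of genes and 33.1% of promoters. The promoters of the 7 genes had 59.7% to 74.3% GC, besides 1 of Myh9 with 48.7%, against a median of 51.7% over all promoters, and the Sp1 core is made of G and C only. The CArG box, the motif of serum response factor, was in 0 of the 7, in 1.77% of genes and in 1.64% of all promoters, searched on both strands. The TATA box (TATAAA, both strands) was in a promoter of Myh9, in 15.3% of genes and in 14.2% of all promoters. A match is a string of letters and no shown binding site, and genes with and without a fall hold the same TEAD core.

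Relatives of the 7 genes moved differently within a family. Among the 4 tropomyosin genes, Tpm1 made up 32% ± 0.79 of the summed level per exon base in fetal, 22.4% ± 0.34 in neonatal and 13.9% ± 0.82 in the adult libraries (SD, n = 3), with no overlap between ages. Tpm2 made up 26.3% ± 3.28, 36.7% ± 0.38 and 40.9% ± 5.29, and Tpm4 38.2% ± 2.98, 38% ± 0.56 and 38.8% ± 5.35. Tpm2, a tropomyosin of smooth muscle and myofibroblasts, rose from 1435 to 2123 CPM between fetal and neonatal cultures (log2 0.57, edgeR adjusted p = 0.0176) and fell to 1474 CPM in adult ones (log2 -0.53, edgeR adjusted p = 0.0121). Tpm3 was higher in adult than in neonatal cultures (434 against 310 CPM, log2 0.49, edgeR adjusted p = 0.0116), while Tpm4 fell (824 against 1318 CPM, log2 -0.68, edgeR adjusted p = 0.000361). The muscle alpha-actinin Actn2 was at 429, 240 and 0.565 CPM (means of the 3 ages), a fall that went with the cardiomyocyte markers and whose source was not tested.

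**Figure D4:**
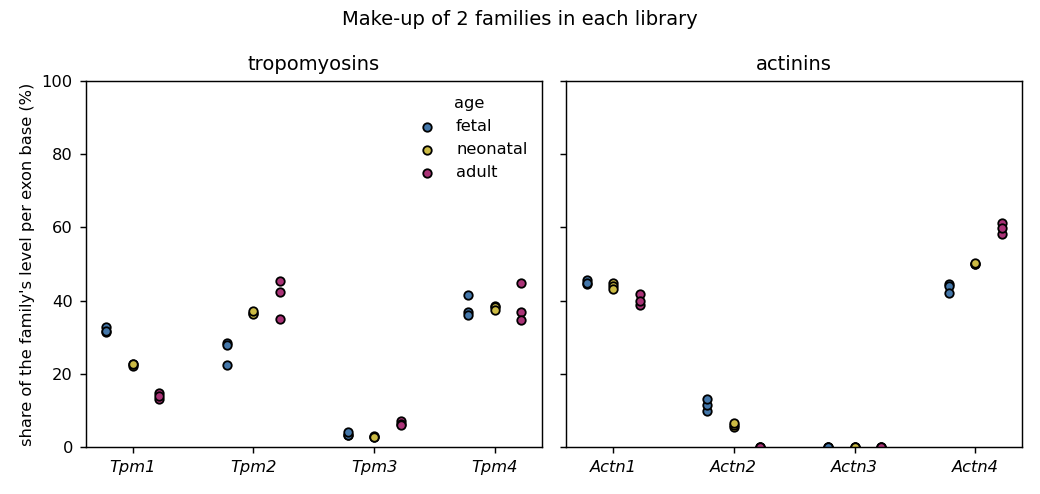
Share of each gene in the summed level per exon base of its family, in percent, for every library of the 3 ages. Tpm1 steps down from 32% to 13.9% of the tropomyosins. Among the actinins Actn4 rises from 43.6% to 59.8%, while Actn2 goes from 11.5% to 0.038% and Actn1 from 44.9% to 40.1%.

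Actn4, the other nonmuscle alpha-actinin, fell less than Actn1, from 2640 CPM in neonatal to 1121 CPM in adult cultures (log2 -1.24, SE 0.11, edgeR adjusted p = 1.2e-05). Its share of the actinins was 43.6% ± 1.37, 50% ± 0.14 and 59.8% ± 1.54 at the 3 ages. The share of the muscle gene Actn2 was 11.5%, 5.99% and 0.038%, and that of Actn1 was 44.9%, 44.0% and 40.1%, so the rising Actn4 share includes the loss of Actn2. The difference between the falls of Actn1 and Actn4 was not tested. Flnc, the muscle filamin, fell from neonatal to adult cultures (326 to 184 CPM, log2 -0.82, edgeR adjusted p = 8.43e-06). Myh14, the heavy chain of nonmuscle myosin IIC, was low throughout, at 30.5, 19.3 and 3.35 CPM, and lower in adult than in neonatal cultures (log2 -2.52, edgeR adjusted p = 0.00205). Talin, the link from integrins to vinculin, is encoded by Tln1, which was at 1250, 1348 and 936 CPM and lower in adult than in neonatal cultures (log2 -0.53, edgeR adjusted p = 0.0262). Paxillin, encoded by Pxn, was at 174, 146 and 137 CPM, with the neonatal to adult step not called (log2 -0.093, edgeR adjusted p = 0.32). Against fetal cultures Pxn was called lower in neonatal (log2 -0.25, edgeR adjusted p = 0.0316) and in adult cultures (log2 -0.35, edgeR adjusted p = 0.00302).

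In the wider pathway lists more genes were called lower than higher from neonatal to adult cultures. Their counts stand beside 31.6% of all tested genes higher and 31.8% lower in that comparison, 34.9% and 35.5% for adult against fetal and 18.3% and 18.0% for neonatal against fetal. The lists hold the 7 genes. In the list of nonmuscle myosin II and its regulators 5 of 21 tested genes were higher and 16 lower (median log2 -0.58, or -0.41 without Myh9 and Myh10, against -0.0065 over all genes tested). Rock1, a kinase that activates myosin, fell from 176 to 76.8 CPM (log2 -1.20, edgeR adjusted p = 1.25e-06), and Ppp1r12a, the targeting subunit of the phosphatase that opposes it, from 198 to 72.9 CPM (log2 -1.44, edgeR adjusted p = 2.59e-06). Rhob, a small GTPase, and Myl12b, a regulatory light chain, rose, from 156 to 322 CPM (log2 1.05, edgeR adjusted p = 2.44e-06) and from 145 to 229 CPM (log2 0.66, edgeR adjusted p = 7.5e-05). Myl6, the essential light chain, could not be tested, since all 677 of its exon bases are shared with Myl6l or Myl6b. From fetal to neonatal cultures 7 of the 21 were higher and 4 lower, the lower ones at about the all-gene share of 18.0%. In adult against fetal cultures 5 were higher and 11 lower, where the all-gene shares were 34.9% and 35.5%.

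In the focal adhesion list, from neonatal to adult cultures 5 of 44 tested genes were higher and 25 lower (median log2 -0.54), where 31.6% and 31.8% of all tested genes were. Sorbs2 and Kank1, adaptors of adhesions and their rim, fell most surely by adjusted p, from 279 to 36.4 CPM (log2 -2.94, edgeR adjusted p = 1.47e-08) and from 181 to 50.02 CPM (log2 -1.85, edgeR adjusted p = 1.24e-07). The genes that rose included Ptk2b and Lpxn, a kinase and a paxillin relative of blood cells, from 8.56 to 50.6 CPM (log2 2.56, edgeR adjusted p = 3.11e-07) and from 3.01 to 29.6 CPM (log2 3.29, edgeR adjusted p = 3.59e-07). Over the same ages the summed leukocyte markers rose and the summed cardiomyocyte markers fell. The part of either cell type in the rises and falls named here was not tested. From fetal to neonatal cultures 8 of the 44 were higher and 10 lower, near the all-gene shares of 18.3% and 18.0%. In adult against fetal cultures 8 were higher and 26 lower, beside 34.9% and 35.5% of all tested genes.

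Among 13 tested actin crosslinkers 1 was higher in adult than in neonatal cultures and 10 lower (median log2 -1.07, or -0.87 without Actn1 and Flna), beside 31.6% and 31.8% of all tested genes. The riser was Lcp1, the plastin of leukocytes, from 36.1 to 893 CPM (log2 4.63, edgeR adjusted p = 8.71e-05). Against fetal cultures the counts were again 1 and 10, beside 34.9% and 35.5%. From fetal to neonatal cultures they were 1 and 3 of 13, beside 18.3% and 18.0%. Of the 10 tropomyosins and side-binding proteins 1 was higher and 8 lower in adult than in neonatal cultures (median log2 -0.66, or -0.64 without Tpm1), 1 and 5 against fetal cultures, and 3 and 1 from fetal to neonatal cultures, with the same all-gene shares. Cald1, caldesmon, fell from 2108 to 677 CPM between neonatal and adult cultures (log2 -1.64, edgeR adjusted p = 1.49e-06). Of the 6 actin genes 4 were lower in adult than in neonatal and in fetal cultures and 0 higher, and 3 fell from fetal to neonatal cultures, with the same all-gene shares. Of the genes that fell, the cardiac actin Actc1 and the enteric smooth muscle actin Actg2 had the smallest adjusted p in all 3 comparisons, at 2714, 1256 and 0.375 CPM and at 835, 209 and 11.4 CPM in fetal, neonatal and adult cultures. Actb, the main nonmuscle actin, was at 5801, 5976 and 6023 CPM and was called in none of the 3 comparisons (log2 0.011 for adult against neonatal, SE 0.087, edgeR adjusted p = 0.918). It was named after its values were seen. Actg1, the other nonmuscle actin, had a mean of 3.81, 2.77 and 3.7 CPM at the 3 ages and its count is uncertain, since it is annotated on 2 chromosomes. Of the serum response factor list Srf and Myocd were analysed here. Srf fell slightly from neonatal to adult cultures (147 to 125 CPM, log2 -0.23, edgeR adjusted p = 0.0255), and Myocd, a coactivator of muscle, was at 37.5, 17.7 and 0.198 CPM.

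**Figure D5:**
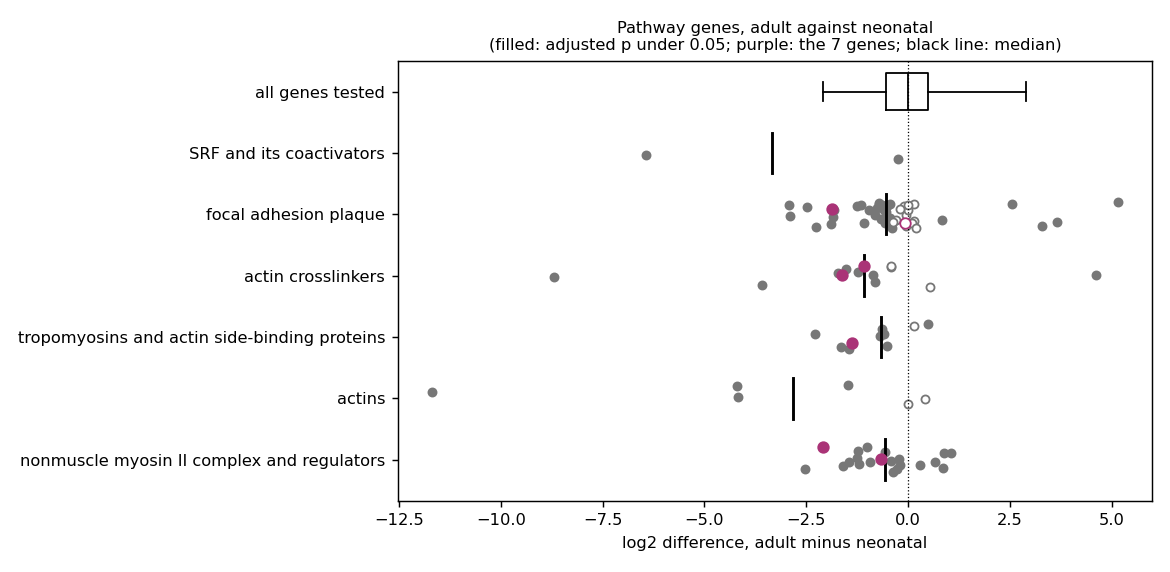
Log2 difference of adult against neonatal cultures for the genes of 6 lists, with the 7 genes in purple, filled points past the edgeR threshold and black lines at list medians, and the spread of all tested genes as a box (quartiles, whiskers from the 5th to the 95th percentile). Medians of the 6 lists lie below 0, from -0.54 for the focal adhesion plaque to -3.33 for the 2 genes of the serum response factor list.

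Genes whose pattern over the 9 libraries was most like that of each of the 7 were sought among 8323 genes of at least 10 CPM on average, by the root mean square distance between centred log2 CPM profiles. The nearest to Vcl was Tns1, which encodes another adhesion protein, tensin 1 (distance 0.095, with 520, 678 and 182 CPM at the 3 ages), followed by Snai2 (0.097). The nearest to Actn1 was Mical2, an actin-oxidizing enzyme (0.072, with 455, 456 and 152 CPM), followed by Bambi (0.083). Myh10 was nearest to Ldhb, a lactate dehydrogenase subunit (0.096, with 230, 159 and 41.9 CPM), and Armcx2 (0.16). Tpm1 was nearest to Hacd1 (0.1) and Clcn3 (0.1), Flna to Eprs (0.04) and Asns (0.063), and Zyx to Acadvl (0.036) and Srp68 (0.038). The reads of the first Myh9 block were nearest to Ptk2, focal adhesion kinase (0.11, with 337, 251 and 160 CPM), and Sik3 (0.13). Among the 7 genes themselves the closest pair was Actn1 and Vcl (0.2) and the farthest Myh10 and Zyx (1.1).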

How the data were processed

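RNA-seq was analysed from 9 libraries of cultured rat cardiac fibroblasts, 3 at each of 3 ages, grouped by the age in the labels. The submitters' processing notes name FastQC, Trimmomatic 0.39, STAR 2.5.2b, featureCounts (Subread 1.6.3) and DESeq2. The authors deposited raw counts per gene for 17337 genes, made per the file headers by featureCounts with the rn6 annotation and default settings, which ignore strand and drop reads shared by genes. Their deposited normalized signal for 12786 genes equals the counts divided by 1 size factor per library, and was not tested.

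The test on counts was that of edgeR 4.0.16 under R 4.3.3 (TMM scaling, filterByExpr, robust quasi-likelihood fit of age over all 9 libraries). The SE is the absolute log2 difference divided by the square root of the F statistic of this fit. Its spread is thus estimated over all 9 libraries, beyond those compared. P-values were adjusted by Benjamini-Hochberg over 11337 genes, with a threshold of 0.05, and the code was tested on simulated data. CPM used TMM-scaled library sizes, and profile distances a prior count of 2. DESeq2 1.42.0, other scalings, filters and thresholds, a replicate block and leaving out each library were alternatives. No 2 libraries of an age agreed within sampling noise (chi-square per gene at least 2.05). Counting error is small beside library spread except for Myh9.

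The 7 genes, the lists and the tests were chosen with earlier results of these data known. Named beside the 7 are their close relatives, up to 2 genes per list, direction and comparison by smallest adjusted p, and the 2 nearest profiles. A close relative is not reported here.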

Additional observations from a re-analysis of the deposited data

How the results depend on the processing

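Of 315 log2 differences recomputed for the 7 genes, 302 kept their direction and side of the threshold, 4 lost and 4 gained a call, and 5 turned sign, none of which was called in either setting. The Actn1 difference of neonatal from fetal libraries turned to -0.096 with scaling by library size only, and ran from -0.011 (without fetal replicate 3) to 0.12 over the fits that left out 1 library. That of Zyx ran from -0.10 to 0.069, above 0 without fetal replicate 1 (0.069), fetal replicate 2 (0.014) or neonatal replicate 1 (0.014). With a log2 difference of at least 1 also required, 0 of the 7 genes were called for neonatal against fetal and 5 in each adult comparison. Leaving out 1 library at a time gave 2 to 4 genes for neonatal against fetal, 5 to 6 for adult against neonatal and 6 to 7 for adult against fetal. Over all genes, 4114 were called for neonatal against fetal and 2476 to 2607 without 1 neonatal library. Scaling by library size only moved the median of all genes to -0.18 (neonatal against fetal), 0.053 (adult against neonatal) and -0.12 (adult against fetal).

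The replicate numbers pair no samples by the labels, and the deviations of same-numbered libraries correlated at -0.065 to 0.052. With the number as a replicate block, 3, 6 and 6 of the 7 genes were called, as without it, and 3713, 6985 and 7801 of all genes. The Myh10 to Myh9 ratio under the block kept its differences of -0.13, -1.43 and -1.55, each with an exact permutation p of 0.25. That is the smallest value this test can give within 3 blocks, so it cannot tell these differences apart. Depth limits Myh9 most, with 76 to 321 counts per library.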
